A study of Arabidopsis thaliana with 12 samples.

Results

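Of 22810 probe sets on an Arabidopsis thaliana expression array, 435 separated eto1-4 seedlings grown with any of 4 ethylene antagonists from untreated seedlings of both genotypes, while differing little between the untreated mutant and the wild type. On 199 of them all 8 arrays of treated seedlings lay above all 4 arrays of untreated seedlings, and on 236 all 8 lay below. The members were chosen by these very values. A probe set had to show a signal over 100 on at least 2 arrays, a difference of eto1-4 minus Col-0 under 0.8 in either direction, treated and untreated arrays that did not overlap, and a difference of at least 0.6 between the treated and the untreated mean. All differences are on the log2(signal + offset) scale, where the offset is the 20th percentile of all signals. What follows on treated against untreated seedlings is therefore a description without a test, and only differences between the treatments were tested. The choice did not set the treatments against each other, but it left out probe sets on which any treated array stayed within the untreated range, and so limits how far the treatments could differ among the members.

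The samples were whole etiolated seedlings, 3 days old and raised without light on MS medium, in 6 groups of 2 arrays each. They were eto1-4 with 10 µM 9393, eto1-4 with 10 µM 9370, eto1-4 with 10 µM 7303, eto1-4 with 10 µM AVG, untreated eto1-4, and untreated Col-0 as the wild type. All 4 treated groups carry the eto1-4 allele, no treated wild type was analysed here, and the labels name no solvent for the untreated groups. AVG is aminoethoxyvinylglycine, and the other compounds are known here only by their codes. In RNA of whole seedlings, fewer cells of a type and less RNA per cell cannot be told apart.

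Plants make ethylene from methionine by way of the intermediate ACC, which ACC synthase forms, and AVG inhibits that enzyme along with others that use pyridoxal phosphate. ETO1 marks a class of ACC synthases for degradation, so that eto1 mutants overproduce ethylene and show in the dark the triple response of a short hypocotyl, a short root and an exaggerated apical hook. The study asked how the antagonists act on transcripts of such a mutant, and the members described here are those that set treated seedlings apart from the mutant and the wild type alike.

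The deposited signals had the same trimmed mean on all arrays, between 500.039 and 500.045, and array medians of 156 to 179 in treated and 170 to 190.0 in untreated seedlings. Poly-A spike RNA was found on 8 arrays, and the 4 without it were replicate 1 of 9393, 9370, eto1-4 and Col-0. Signals of its DapX control were 239 to 477 on the arrays with the spike and 1.11 to 20 on those without. Both arrays of 7303 and of AVG carried the spike, so that a difference of these 2 groups from 9393 and 9370 goes along with a difference in the share of spiked arrays. The ratio of 3′ to 5′ GAPDH signal was 1.18 to 1.53 on spiked and 1.60 to 2.02 on unspiked arrays, and 1.18 to 2.02 in treated against 1.31 to 1.89 in untreated seedlings. The 25S rRNA control was uneven, at 208 and 266 in Col-0, 9784 and 2260 in untreated eto1-4 and 494 to 12724 in treated seedlings. Both Col-0 arrays were thus lower than all others. Of the marker genes of other tissues, 2 seed genes and 2 root hair genes were named and tested and none was a member. They were OLEO3 at -1.16, PAP85 at -0.64, EXPA7 at -0.32 and EXPA18 at -0.33 for treated minus untreated, and no photosynthesis or endodermis marker could be read. The value of PAP85 rests on replicate 1 of untreated eto1-4, at 6894. Its other untreated arrays, at 5.11 to 42.6, lay below all treated arrays, at 49.9 to 264.

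The steps of the choice show how common such a pattern was. Among the 14660 probe sets with enough signal, all treated arrays lay above all untreated arrays on 405, which is 2.76%, and below on 552, which is 3.77%. A difference of at least 0.6 left 218 and 244. The limit on eto1-4 minus Col-0 removed 27 more and left 199 and 236. The members' own share, 1.36% above and 1.61% below, follows from the choice and nothing is read from it. The median difference over all tested probe sets was -0.04, a value that the scaling of all arrays to 1 trimmed mean largely sets.

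**Figure D1:**
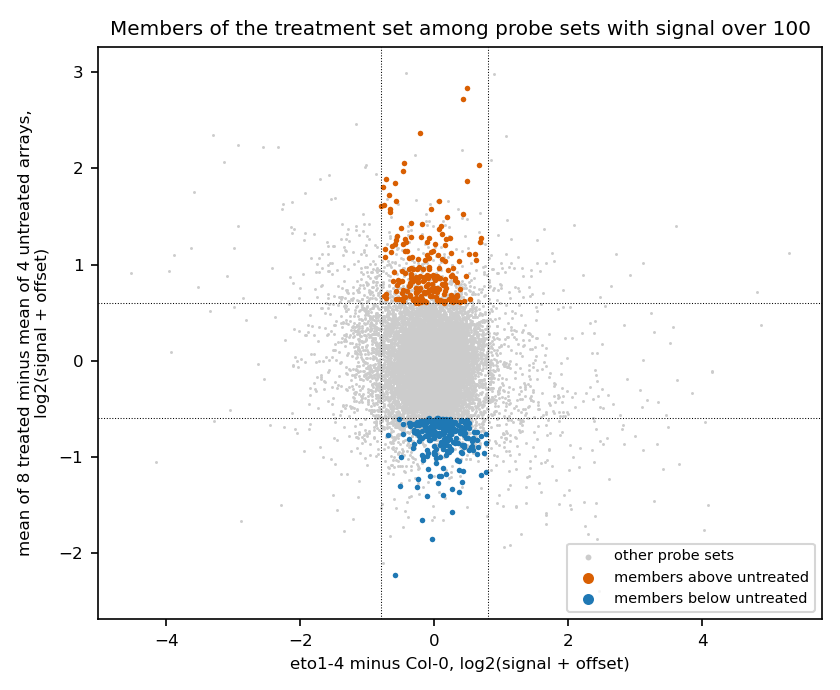
Each point is a probe set with a signal over 100 on at least 2 arrays. The horizontal axis gives eto1-4 minus Col-0 and the vertical axis the mean of the 8 treated minus the mean of the 4 untreated arrays, both as log2(signal + offset). Dotted lines mark the limits of 0.8 and 0.6. The 199 members above (orange) and 236 members below (blue) lie between the vertical lines, and grey points beyond the horizontal lines there have treated and untreated arrays that overlap.

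The members above untreated had a median difference of 0.85, with a range of 0.60 to 2.84, and 65 of them reached 1. The members below had a median of -0.74 with a range of -2.23 to -0.60, and 30 reached -1. The median signal was 1145 in treated and 567 in untreated seedlings for the members above, and 396 in treated and 705 in untreated seedlings for the members below. Most members cleared the other group by little. The gap between the nearest treated and untreated array had a median of 0.15 above and 0.18 below, and it came close to 0 for some members. At the limits, AT4G10130 at 0.601 and PRA1.G2 at 0.602 were just inside, and AT2G37950 and AT5G16800, both at 0.594, were just outside. On the lower side AT3G03960 at -0.601 and AT3G49720 at -0.602 were inside, with AT3G48410 at -0.597 and AT4G36680 at -0.591 outside. At the limit on the mutant, AT5G48110 with -0.798 and AT5G66310 with 0.778 for eto1-4 minus Col-0 were inside, and AT1G35612 with -0.885 and AT2G34300 with 0.887 were outside.

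A difference of up to 0.8 between the genotypes was allowed, so that the members are not free of a difference between them. Untreated eto1-4 lay above Col-0 for 73 of the 199 members above and for 155 of the 236 below, with medians of -0.13 and 0.13 for eto1-4 minus Col-0. Over all tested probe sets that median was -0.03. In both directions the order untreated eto1-4, Col-0, treated was thus the more frequent one. APL3, for example, differed by 0.74 between the genotypes and DPE1 by -0.03.

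Of the 435 members, 217 name 1 gene, 3 name several and 215 are unnamed in the annotation used. The share with 1 gene, 49.9%, is close to the 53.9% of all tested probe sets. It was 58.8% above and 42.4% below. Only 36 members carry a gene name other than a locus tag, 11 above and 25 below. Of these, DEWAX, KUA1 and AGL79 were named by hand from synonyms in the reference, and synonyms of other members gave no name. All 36 are named here, by role where one is given, whatever their size, a choice made after their values were seen. No member gene had a second tested probe set. Among neighbours on a chromosome, AT3G07310 and AT3G07320 were the 1 adjacent pair and lay in opposite directions, at 0.76 and -0.69.

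The strongest members in both directions are unnamed. Probe set 251438_s_at, which may read more than 1 transcript as its suffix shows, gave 949.8 and 4209 under 9393, 1089.8 and 3731 under 9370, 4145 and 3654 under 7303 and 3678 and 3616 under AVG, against 393 and 490.3 in untreated eto1-4 and 369 and 252 in Col-0. Every treated array lay well above every untreated array, with the 2 unspiked treated arrays lowest, and the difference was 2.84. Probe set 253040_at gave 484 and 170.4 under 9393, 375 and 276 under 9370, 102 and 116 under 7303 and 214 and 235 under AVG, against 848 and 981 in untreated eto1-4 and 1029.7 and 1839 in Col-0. Its difference was -2.23, and again the unspiked treated arrays stood nearest to the untreated ones.

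Among named genes the starch and sugar group held the strongest member below. DPE1, the plastid disproportionating enzyme that works on the maltotriose released by starch breakdown, gave 336 and 65.1 under 9393, 208 and 55.2 under 9370, 106 and 85.0 under 7303 and 106 and 135 under AVG, against 681 and 340.4 in untreated eto1-4 and 483 and 504 in Col-0. The highest treated array, replicate 1 of 9393, almost met the lowest untreated array, and the difference of the means was -1.85. On the spiked arrays alone it was -1.97 and on the unspiked arrays -1.05. In this and the later differences of single genes by spike, spiked treated arrays came from every treatment. The unspiked treated arrays came from 9393 and 9370 only.

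PWD, the phosphoglucan water dikinase that phosphorylates starch ahead of its breakdown, gave 519 and 348 under 9393, 414 and 302 under 9370, 367 and 374 under 7303 and 371 and 429 under AVG, against 977 and 733 in untreated eto1-4 and 761 and 1071 in Col-0. The difference was -1.13, with a clear gap between the groups. APL3, a large subunit of ADP-glucose pyrophosphorylase on the route into starch, gave 89.5 and 91.7 under 9393, 52.3 and 63.0 under 9370, 69.0 and 69.5 under 7303 and 46.7 and 71.5 under AVG, against 211 and 200.3 in untreated eto1-4 and 122 and 106 in Col-0. Its difference was -0.96, and the untreated mutant was higher than the wild type on both arrays. SBPASE, sedoheptulose bisphosphatase of the Calvin cycle, lay at 1405 to 2820 in treated and 2843 to 4524 in untreated seedlings, a difference of -0.81 in which the groups nearly touched.

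A list of starch, lipid and carbon genes, written with earlier results of these data known, had 8 named and tested genes. DPE1 and APL3 were its 2 members, both below, where 1.61% of all probe sets with enough signal were members below, a share fixed by the choice from which nothing is read. The median of the 8 was -0.18 against -0.04 over all tested probe sets. SBE2.2, a starch branching enzyme on the same list, was no member, with -0.09 and overlapping arrays. The rest of the list, also no members, went both ways. WSD1 was at 1.14 and SDP1 at 0.65, and ICL was at -0.48, AIM1 at -0.25 and PDC2 at -0.12.

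Of the named members, XTH19 and 3 GH9 genes act on the cell wall. XTH19, a xyloglucan endotransglucosylase that cuts and rejoins the xyloglucan tethers of the wall, gave 5278 and 4033 under 9393, 3783 and 3638 under 9370, 4189 and 4172 under 7303 and 3269 and 4402 under AVG, against 8282 and 9197 in untreated eto1-4 and 6744 and 6139.9 in Col-0. The groups did not overlap, eto1-4 was the highest group, and the difference was -0.88. It was the only member among the 25 named and tested genes of a cell wall list, against 1.61% of all probe sets with enough signal below, and the median of that list was -0.25 against -0.04 over all tested probe sets.

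GH9B8, an endoglucanase of the glycosyl hydrolase GH9 family, gave 183 and 115 under 9393, 158 and 127 under 9370, 114 and 74.4 under 7303 and 121 and 148 under AVG, against 500.5 and 347 in untreated eto1-4 and 273 and 366 in Col-0. The highest treated array was well under the lowest untreated array, and the difference was -1.37. GH9C2 at -0.81 and GH9B5 at -0.61 were members too, so that 3 of the 8 named and tested GH9 genes lay below without overlap, as did 3.77% of all probe sets with enough signal. The family was picked after its values were seen, so nothing is read from this count and it gets no test. The other genes of the family had differences of -1.35 for GH9B12, -0.67 for GH9B13, -0.41 for GH9C1, -0.27 for GH9B7 and -0.10 for GH9B18. GH9B12 differed by 2.01 between eto1-4 and Col-0, and 1 of its AVG arrays, at 69.8, lay above both Col-0 arrays, at 44.5 and 64.4.

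Other named members below served respiration, protein turnover, amino acids and lipids. SDH1-1, the flavoprotein subunit of mitochondrial succinate dehydrogenase, lay at 895 to 1250.0 in treated and 1712 to 2330.5 in untreated seedlings, a difference of -0.85. NDB2, an external NAD(P)H dehydrogenase of mitochondria, had a difference of -0.67 and was the only member among 6 tested oxidative stress genes, against the same 1.61% below over all, with a list median of -0.40 against -0.04. The chaperone CRT1b, a calreticulin of the endoplasmic reticulum, had -0.86, the subtilase SBTI1.1 had -0.85 and the vacuolar processing enzyme ALPHA-VPE had -0.68.

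MMT, which methylates methionine to S-methylmethionine, gave 574 and 705 under 9393, 539 and 634 under 9370, 729.9 and 616 under 7303 and 532 and 684 under AVG, against 915 and 1026 in untreated eto1-4 and 986 and 1151 in Col-0. Its treated arrays all lay below, by -0.69 on average. The difference was -0.73 on spiked arrays and -0.75 on unspiked arrays, which hold no 7303 or AVG. OTC, ornithine carbamoyltransferase of arginine synthesis, had -0.64, and FAC1, an AMP deaminase, had -0.63. Of lipid and aldehyde metabolism, ALDH3F1, an aldehyde dehydrogenase, had -0.75, AAE16, an acyl-activating enzyme, -0.67, and FAAH, which hydrolyses N-acylethanolamines, -0.65.

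Single members below came from further processes. They were ICU2, the catalytic subunit of DNA polymerase alpha, at -0.77, NET1A, an actin-binding protein, at -0.74, rpl22, a ribosomal protein encoded in the plastid, at -0.73, NOL, a chlorophyll b reductase, at -0.67, and BGLU42, a beta-glucosidase, at -0.62. DECOY, for which no role is given here, was at -0.72.

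Among named members above, GAT1_2.1, a glutamine amidotransferase-like gene, had the largest difference. It gave 946 and 2761 under 9393, 1419 and 3663 under 9370, 3217 and 3415 under 7303 and 3680 and 2824 under AVG, against 692 and 824 in untreated eto1-4 and 776 and 279 in Col-0. The lowest treated array, replicate 1 of 9393, was only just above the highest untreated array, while the spiked treated arrays were far above it. The difference was 2.03 over all arrays, 2.69 on spiked arrays and 0.65 on unspiked arrays, which hold no 7303 or AVG.

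Of the 11 named members above, DEWAX, KUA1 and bZIP48 are regulators of transcription. DEWAX and KUA1 are named only through a synonym, so nothing is read from their number. DEWAX, an AP2/ERF factor that represses cuticular wax synthesis, gave 2151 and 2314 under 9393, 2116 and 2488 under 9370, 2270.1 and 2384 under 7303 and 2745 and 1932 under AVG, against 1304 and 1277 in untreated eto1-4 and 1280 and 1158 in Col-0. All treated arrays lay close together and apart from the untreated ones, by 0.86, and the 2 untreated groups differed by 0.08. AGL79, named through a synonym and given no role here, gave 329 and 429 under 9393, 484 and 318 under 9370, 553 and 439 under 7303 and 870 and 574 under AVG, against 102 and 226 in untreated eto1-4 and 230 and 273 in Col-0. Its difference was 1.19, with the untreated mutant lowest. The name AGL79 stands here for locus AT1G30260 and was not checked beyond the synonym.

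KUA1, a MYB-related factor that promotes cell expansion, had a difference of 0.63 and lay at 1401 to 2289 in treated and 1167 to 1334 in untreated seedlings. The bZIP factor bZIP48 was dim and its treated arrays differed by the spike. It lay at 64.4 to 166 in treated and 30.0 to 61.6 in untreated seedlings, with a difference of 1.25 on spiked and 0.14 on unspiked arrays.

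The remaining named members above belong to protein and organelle turnover, conjugation and sulfur. APG8A, also called ATG8A, the ubiquitin-like protein that decorates autophagosomes, gave 2753 and 2997 under 9393, 3126 and 3269 under 9370, 3764 and 3538 under 7303 and 3752 and 3490 under AVG, against 1895 and 2270 in untreated eto1-4 and 2069 and 2465 in Col-0. Every treated array was higher than every untreated one, by 0.61 on average, and by about as much on spiked arrays, at 0.54, as on unspiked arrays, at 0.56. FIS1B, a fission protein of mitochondria and peroxisomes, had a difference of 0.76, with 793 to 1408 in treated and 536 to 614 in untreated seedlings.

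ATL8, of the ATL family of RING ubiquitin ligases, gave 352 and 683 under 9393, 394 and 897 under 9370, 391 and 546 under 7303 and 1126 and 1207 under AVG, against 315 and 327 in untreated eto1-4 and 264 and 134 in Col-0. AVG stood above the coded compounds, whose lowest array came near untreated eto1-4, and the difference over all treated arrays was 1.28. The glucosyltransferase UGT71C2 had 0.79, the sulfurtransferase STR18 had 0.67, and PRA1.G2, of a family of prenylated Rab acceptors, had 0.60.

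**Figure D2:**
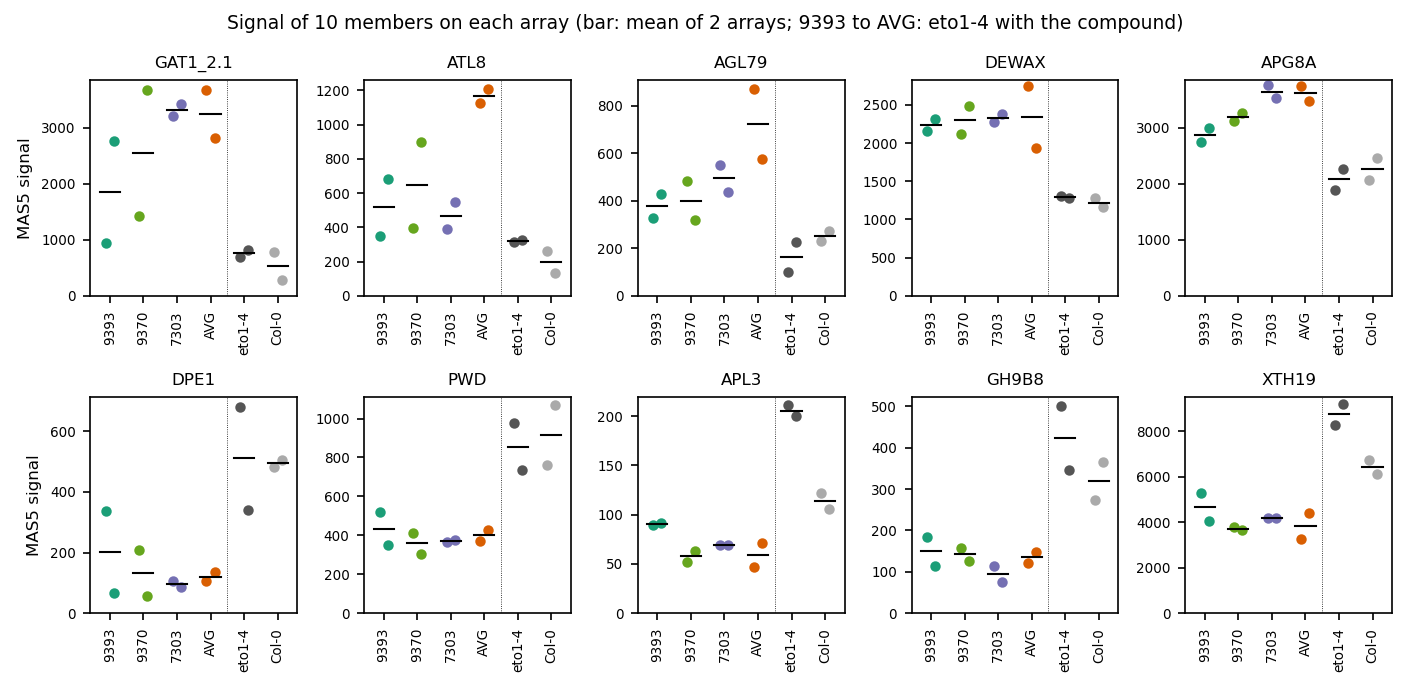
Signal of 10 named members on each array, on a linear axis that starts at 0, with points for arrays and a bar for the mean of the 2 arrays of a group. The labels 9393 to AVG stand for eto1-4 with that compound, and a dotted line divides treated from untreated groups. GAT1_2.1 and DPE1 show treated arrays that come close to the untreated ones, while DEWAX, PWD and GH9B8 show a gap. AGL79 stands for locus AT1G30260.

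Most of the other strong members are known here only by locus tag. AT4G04630 gave 105 and 335 under 9393, 104 and 301 under 9370, 334 and 244 under 7303 and 727 and 563 under AVG, against 61.4 and 96.6 in untreated eto1-4 and 60.4 and 38.1 in Col-0. Its difference was 1.86, with AVG highest. AT2G20670 lay at 3692 to 9914 in treated and 1554 to 3248 in untreated seedlings, a difference of 1.66, and AT5G48110 had 1.61. The remaining genes of the 15 highest ranged between 1.28 and 1.58 and were AT5G11070, AT1G65510, AT2G31945, AT2G14160, AT1G26800, AT5G42200, AT1G23120, AT2G25450, AT3G06750 and AT3G20340 beside ATL8.

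On the lower side, AT1G43910 gave 202 and 76.5 under 9393, 182 and 93.8 under 9370, 70.7 and 50.0 under 7303 and 78 and 62.9 under AVG, against 279 and 364 in untreated eto1-4 and 365 and 362 in Col-0, a difference of -1.66. The 2 unspiked treated arrays were the highest of the treated ones here as well. AT4G01700 had -1.57 and AT1G53070 had -1.39. Further down followed AT5G42860 at -1.26, AT3G61820 at -1.20, AT1G49570 at -1.16 and AT4G30020 at -1.12. The last of the 15 were AT3G14220 at -1.03, AT1G29020 at -1.01, AT1G20950 at -1.0, AT1G12000 at -0.99 and AT3G43960 at -0.98.

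The other lists of hormone, stress, transport and metabolism genes held no member. In all, 22 lists with 131 named and tested genes gave 4 members, DPE1, APL3, XTH19 and NDB2, all below, and 19 lists had none. That is 3.05% of the list genes, close to the 2.97% of all probe sets with enough signal that were members, so the count shows nothing particular to the lists. Among these 19 were the lists for ethylene synthesis, with 1 gene tested, for ethylene perception and response, with 4, for auxin, with 9, for detoxification and conjugation, with 19, and for reference genes, with 8. Many genes of these pathways are not named in the annotation used, and their probe sets could not be counted on a list. The limit on eto1-4 minus Col-0 also kept genes out whatever the treatments did. MGL on the ethylene synthesis list was at 1.31 there, and RTE1 and ARL on the ethylene response list were at 2.11 and 2.51. For them the absence follows from the choice. Among the reference genes, PEX4 lay above without overlap, as did 2.76% of all probe sets with enough signal. At 0.42 it missed the limit of 0.6.

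The shift of the members differed between arrays. For the members above, the median shift from the untreated mean was 0.52 and 0.86 on the arrays of 9393, 0.70 and 0.91 on those of 9370, 0.99 and 0.92 on those of 7303 and 1.12 and 0.93 on those of AVG, against -0.19 and 0.10 on those of untreated eto1-4 and 0.17 and -0.03 on those of Col-0. For the members below it was -0.56 and -0.76 under 9393, -0.72 and -0.79 under 9370, -0.75 and -0.82 under 7303 and -0.97 and -0.68 under AVG, against 0.14 and -0.03 in untreated eto1-4 and -0.13 and -0.02 in Col-0. Replicate 1 of 9393, an unspiked array, had the smallest shift of all treated arrays in both directions. Among the members above, the 2 unspiked treated arrays had the smallest shifts. Among the members below that order did not hold, since the spiked replicate 2 of AVG, at -0.68, shifted less than the unspiked replicate 1 of 9370, at -0.72.

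Compared like with like, 9393 and 9370 against the untreated groups had a median of 0.84 on spiked and 0.63 on unspiked arrays for the members above, with 150 of 199 larger on spiked arrays. For the members below the medians were -0.75 and -0.65, with 152 of 236 larger in size on spiked arrays. The part of the spike in these differences was not tested.

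**Figure D3:**
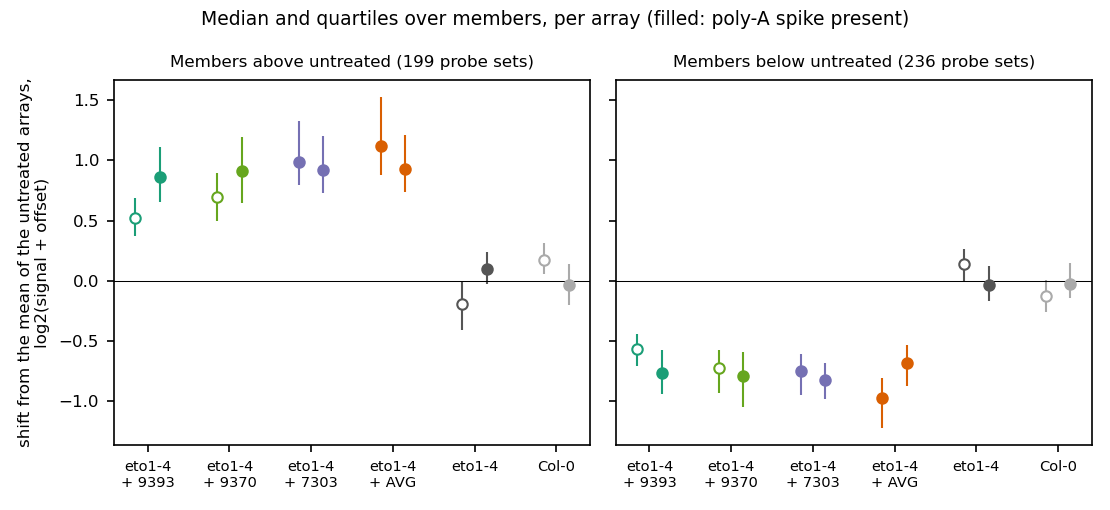
Median (point) and quartiles (line) over the members of the shift of each array from the mean of the 4 untreated arrays, as log2(signal + offset), for the 199 members above (left) and the 236 below (right). Filled points are arrays with the poly-A spike and open points arrays without. Treated arrays lie between 0.52 and 1.12 on the left and between -0.97 and -0.56 on the right, and untreated arrays between -0.19 and 0.17.

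By group, the median difference from the untreated mean was 0.67 for 9393, 0.77 for 9370, 0.95 for 7303 and 1.01 for AVG among the members above, and -0.66, -0.77, -0.78 and -0.84 in the same order among the members below. The difference was largest under AVG for 212 of the 435 members, under 7303 for 136, under 9370 for 72 and under 9393 for 15, and it was smallest under 9393 for 248. On the 8 spiked arrays alone, 189 were largest under AVG and 148 smallest under 9393. Without replicate 1 of AVG, 131 were largest under AVG and 183 under 7303, and without replicate 1 of 9393, 127 were smallest under 9393. These counts thus moved by more than 1.5 times with single arrays. Replicates of the members differed by a median of 0.32 under 9393, 0.30 under 9370, 0.15 under 7303, 0.25 under AVG, 0.28 in eto1-4 and 0.22 in Col-0.

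Whether the treatments differed for the members was tested in a limma fit to all 12 arrays and 14830 probe sets, with p-values adjusted by the Benjamini-Hochberg method over all of them. Of the members 434 entered. The exception, 253622_at at -0.77, was too dim. The labels do not tie the replicates to separate cultures, so that the p-values rest on a spread between samples that may be technical only.

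For AVG minus the mean of 9393, 9370 and 7303, limma called no member at an adjusted p under 0.05. Over all tested probe sets it called 0.00674%, which is the 1 probe set of THI2.2, no member, at -4.09 with an interval of -4.98 to -3.21 and an adjusted p of 0.0164. At an unadjusted p under 0.05 it picked 62 members, or 14.3%, against 1795 probe sets, or 12.1%, in all. The median difference was 0.25 for the members above, with 165 of 199 higher under AVG, and -0.10 for the members below, with 77 of 235 higher under AVG. Over all tested probe sets the median was -0.01 and 48.8% were higher. On the 8 spiked arrays alone the medians were 0.12 and -0.07.

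The 95% interval of a member's difference reached a median of 0.45 to either side. It lay within 1 in either direction for 151 of 199 members above and 216 of 235 below, so that for these a difference of AVG from the coded compounds of more than 2-fold on this scale lay outside the interval. Within 0.6 lay 53 and 112. The missing calls do not show that AVG and the coded compounds acted alike.

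The members with the largest estimates show what the fit could and could not tell apart. AT4G04630 was higher under AVG by 1.48, with a 95% interval of 0.55 to 2.42, and ATL8 by 1.15, with 0.39 to 1.91, with adjusted p of 0.219 and 0.227 in limma. On the spiked arrays alone their differences were 1.01 and 0.80. AT1G21780, which among the named members had the smallest adjusted p of this comparison, 0.191 in limma, gave 886 and 1040.3 under 9393, 1087 and 950.0 under 9370, 1416 and 1337 under 7303 and 1728 and 1580 under AVG, against 757 and 844 in untreated eto1-4 and 715 and 832 in Col-0. Both AVG arrays were above all others, by 0.57 with an interval of 0.25 to 0.89 from the coded compounds.

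For SBPASE, AVG minus the coded compounds was -0.62, with an interval of -1.05 to -0.18 and an adjusted p of 0.248 in limma. For FIS1B it was 0.45, with 0.12 to 0.78 and an adjusted p of 0.253. Other estimates lay near 0 or had wide intervals. DEWAX differed by 0.01 with an interval of -0.35 to 0.37, PWD by 0.06 with -0.41 to 0.53, and APG8A by 0.17 with -0.15 to 0.48. GAT1_2.1 differed by 0.48, with an interval of -0.58 to 1.53, over all arrays and by 0.00, with -0.34 to 0.34, on the spiked arrays alone. DPE1 went the other way. It differed by 0.02, with an interval of -1.14 to 1.17, over all arrays. On the spiked arrays alone it differed by 0.62, with 0.18 to 1.05 and an adjusted p of 0.147 in limma.

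**Figure D4:**
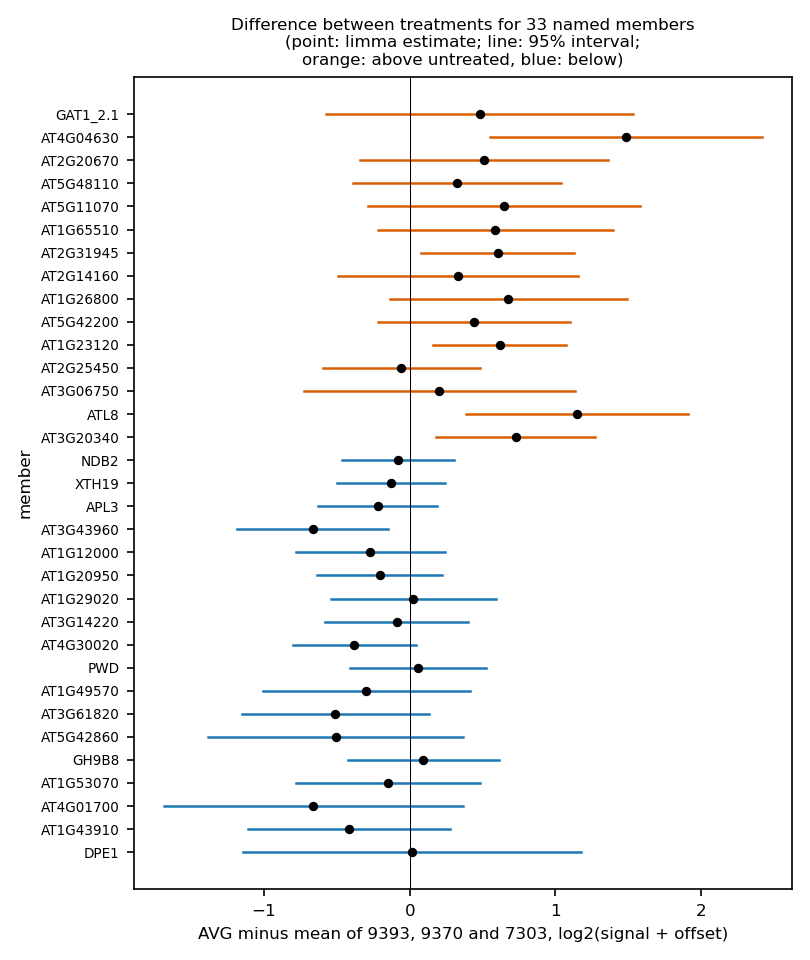
AVG minus the mean of 9393, 9370 and 7303 for the 33 members named by size or by list, as log2(signal + offset). Points are limma estimates and lines their 95% intervals, orange for members above and blue for members below untreated. Of the 15 above, 14 have a positive estimate and 5 an interval that leaves out 0. Of the 18 below, 4 have a positive estimate and 1 has an interval that leaves out 0. None has an adjusted p under 0.05.

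For 7303 minus the mean of 9393 and 9370, limma called 0 of 434 members and 0% of all probe sets. At an unadjusted p under 0.05 there were 26 members, or 5.99%, against 7.74% in all. The median was 0.24 for the members above, with 177 of 199 higher under 7303, and -0.08 for those below, with 82 of 235 higher. Over all tested probe sets the median was -0.02 and 47.0% were higher. On the spiked arrays alone the medians were 0.09 and -0.02, smaller than over all arrays. Among the members AT4G16000 had the smallest adjusted p, 0.444 in limma, where the smallest over all probe sets was 0.398. It gave 141 and 218 under 9393, 121 and 193 under 9370, 337 and 352 under 7303 and 280 and 345 under AVG, against 82.9 and 87.1 in untreated eto1-4 and 116 and 111 in Col-0. Its difference was 0.98 with an interval of 0.50 to 1.45 over all arrays, and 0.69 on spiked arrays.

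For 9370 minus 9393, which share the same pattern of spiked arrays, limma called 0 of 434 members and 0% of all probe sets. There were 7 members, or 1.61%, at an unadjusted p under 0.05, against 0.890% in all. The median was 0.10 above, with 157 of 199 higher under 9370, and -0.10 below, with 68 of 235 higher, against 0.01 and 51.9% over all tested probe sets. The interval reached a median of 0.55 to either side. For DPE1 it ran from -1.82 to 1.01 around -0.41.

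The F test over all differences among the 4 treatments called 0 members and 0% of all probe sets in limma, with 30 members, or 6.91%, at an unadjusted p under 0.05 against 8.19% in all. The smallest adjusted p of a member was 0.342, for AT4G16000.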

How the data were processed

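The table that the authors deposited holds linear signal intensities, 1 for each probe set on each array. They came from MAS5, per the submitters' processing notes, and no version or settings are given in the sources used here. An offset, the 20th percentile of all signals (22.39) rounded to 1 decimal, was added to each signal before log2 was taken. Means were taken over the 2 arrays of a group. No 2 arrays held identical values, and no column was left unused (0). Array controls (64 probe sets) stayed out. The number of arrays limits the precision. Genes were named through the platform annotation and the symbols of assembly TAIR10.1, with DEWAX, KUA1 and AGL79 picked by hand from its synonyms. Coordinates served only to find neighbours on a chromosome, and sequences were not used here.

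Differences between treatments were fitted with limma 3.58.1 in R 4.3.3, with 6 group means, an intensity trend in the variance, 6 residual and 4.07 prior degrees of freedom, for the 14830 probe sets whose signal passed the 40th percentile of the array on 2 arrays or more. Calls were made at an adjusted p under 0.05. The script was tested on simulated data. Summaries were made in Python 3.11.15 with pandas 2.3.3.

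The members, the gene lists and the tests were chosen with earlier results of these data known. Members named by rule were those naming 1 gene that were the 15 furthest above and the 15 furthest below, called between treatments, on a list, or nearest to a limit (2 on each side). The 22 lists covered hormones, stress, detoxification, the cell wall, transport, light, the clock, metabolism, the cell cycle, translation, reference genes and seed storage. Members were also looked at with another offset, quantile normalization, no filter, the replicate number or the spike as a block, spiked arrays only, treated groups only, and each array left out.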

Additional observations from a re-analysis of the deposited data

How the results depend on the processing

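Named members kept their direction of treated against untreated under an offset of 100, quantile normalization and the 8 spiked arrays alone, and 6, 0 and 2 of the 33 moved by more than the spread between replicates. The choice of members itself depended on the arrays. It found 435 probe sets, and 312 with an offset of 100 (304 shared), 442 after quantile normalization (371 shared) and 1443 on the 8 spiked arrays alone (350 shared), where fewer arrays have to separate. Leaving out 1 array gave 406 to 780, with 719 without replicate 1 of 9393 and 780 without replicate 2 of eto1-4. The counts of members with the largest difference under AVG ranged from 131 to 279 with 1 array left out, and 131 was without AVG replicate 1. Those with the smallest under 9393 ranged from 127 to 326, with 127 without 9393 replicate 1, and were 148 on spiked arrays. The settings for these 2 counts and for the named members were added after the data were seen.

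No member was called between treatments under any setting run. For AVG minus the coded compounds 1 probe set was called, 0 with an offset of 100, 0 on the spiked arrays alone, 0 with the 4 treated groups alone, and 0 to 7 with 1 array left out, 6 of them without replicate 1 of 7303 and 7 without replicate 2 of 9370. The F test called 0, and 0 to 1 with 1 array left out. Where a group was left with 1 array, that array was assumed to vary like the other groups. With the replicate number as a block, AVG minus the coded compounds still gave 1 called probe set and 0 members. The numbers were not shown to pair the arrays, since the deviations of same-numbered arrays correlated at -0.272 to 0.781 over 15 pairs of groups. The 5 pairs over 0.1 all lay among 9393, 9370, eto1-4 and Col-0, whose replicate 1 is unspiked, so that in these 4 groups number and spike cannot be told apart. With the spike as a block, the interval of DPE1 for 9370 minus 9393 ran from -1.30 to 0.49, against -1.82 to 1.01 without it. No detection calls were used, so dim probe sets were limited only by the filter on signal. In each group of 2 arrays a single outlying array cannot be told from spread.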
